A study of Mus musculus with 8 samples.

Results

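Messenger RNA from 4 mouse secondary iPSC lines was compared between the mesodermal lines 16-6 and 32, with 2 replicate libraries each, and the lines S8 and T2, with 1 library each. These are 6 of the 8 libraries of the series, and the other 2 come from the embryonic stem cell (ESC) line R1. Line 16-6 was made from hematopoietic cells of the bone marrow and line 32 from adipocyte progenitors of the inguinal fat, whereas S8 came from the epidermis (ectoderm) and T2 from the lining of the stomach (endoderm). All 4 are 2nd generation iPS cells: the somatic cells were taken from 8-week-old mice grown wholly from iPSCs that carried doxycycline-inducible Oct4, Sox2, c-Myc and Klf4, and were reprogrammed again by these factors. Each line is 1 clone, and the lines were grown with LIF and serum on mitomycin C-treated mouse embryonic fibroblast feeders. The labels give the tissue of every library as embryo. A gene entered the comparison when it reached an FPKM (fragment number scaled to transcript length and library size, here divided by 1 constant) of 1 in at least 1 of the 6 libraries, which 13266 of 22878 entries did.

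Germ layer of origin, line and library batch coincide here. The study lists many more reads and a smaller uniquely mapped share for S8 and T2 than for R1, 16-6 and 32, so that the donor tissue and the sequencing cannot be told apart in any difference below. The confidence limits in the files correspond to 15.5 to 16.7 times 1000000 fragments per library. The 10 highest entries took 12.7% and 13.6% of the total in T2 and S8, against 19.2% to 26.5% in the other 6 libraries.

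Mouse pluripotent cells occupy a range of related states. Cells in the naive state resemble the inner cell mass and express factors such as Esrrb, Tbx3 and Nr5a2, and cells in the formative or primed state resemble the epiblast after implantation and express Pou3f1, Dnmt3a and Dnmt3b. Cultures in serum and LIF usually hold a mixture of these states, and a few cells start to express mesendoderm genes such as T. The markers of pluripotent cells were abundant in all 6 iPSC libraries, with a summed FPKM over 9 genes between 2669 and 5377. Most of the few markers chosen for the donor tissues stayed under an FPKM of 1, with Kit as a clear exception, as described below.

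Several groups of genes lay apart between the sides. Transcription factors of the formative epiblast (Pou3f1, Sox3, Zic2) and the de novo DNA methyltransferases Dnmt3a and Dnmt3b with their cofactor Dnmt3l were higher in S8 and T2. The single genes Slc16a3, Egln3 and Bnip3, known for their response to low oxygen, were higher too. In the whole list of hypoxia and glycolysis genes 31.0% did not overlap upwards, near the 24.4% of all tested genes. Naive factors (Tcfcp2l1, Nr5a2, Tbx3, Esrrb), Nanog and mesendoderm genes (T, Cdx1, Eomes, Sp5) were lower in S8 and T2. In all, 5172 genes (39%) did not overlap between the 4 libraries of 16-6 and 32 and the 2 of S8 and T2, of which 3232 (24.4%) were higher and 1940 (14.6%) lower in S8 and T2. The gap between the sides reached 2-fold for 79 (0.596%) higher and 40 (0.302%) lower genes.

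Calls depended on which spread served as the error. A gene was called where the Benjamini-Hochberg adjusted p of limma was below 0.05, the difference was at least 2-fold on the log2(FPKM + 1) scale and the sides did not overlap. With the spread between lines of the same side as the error (2 lines a side, referred to as the line fit), 18 genes were called, or 0.136% of those tested, 12 (0.0905%) higher and 6 (0.0452%) lower in S8 and T2. With the noise between replicate libraries as the error (the library fit), 567 genes (4.27%) were called, 356 (2.68%) higher and 211 (1.59%) lower. Among these, 51 differed by at least 4-fold. In the line fit 517 of them had an unadjusted p below 0.05, which 1510 of all tested genes had. Both fits use the same values, and a call requires a 2-fold difference without overlap. The count of 517 therefore follows largely from the call rule and is no separate support. The library fit takes no account of how far lines of one side differ, and S8 and T2 have no replicate. Genes called below were called by the library fit unless the line fit is named, and differences are on the log2(FPKM + 1) scale, S8 and T2 minus 16-6 and 32.

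The higher genes were led by 2 X-linked genes. Sox3, a SOXB1 transcription factor of the epiblast and the neural plate (chromosome X:58144541-58146605 in mm9), had an FPKM of 34.06 in S8 and 29.08 in T2, against 5.68 and 5.53 in 16-6 and 5.26 and 6.05 in 32. Both unreplicated libraries were several times above all 4 mesodermal ones, and the 4 lay within 1 FPKM of each other. The difference of 2.29 (SE 0.07) had an adjusted p of 6.61e-05 in the library fit and 0.0471 in the line fit. Gm4987, a predicted gene, was at 40.82 in S8 and 42.08 in T2, and at 7.11 and 5.47 in 16-6 and 4.3 and 8.2 in 32 (difference 2.58, SE 0.24; line fit adjusted p = 0.0224). These were the genes of at least 200 bases that both fits called higher. Both were chosen by line fit call and gap, which requires sides that do not overlap and favours a small spread within a side. Their separation thus follows from the choice. When entries under 200 bases were left out of the line fit, the adjusted p rose to 0.0922 for Sox3 and 0.0808 for Gm4987, and 0 genes were called by it in all (1572 had an unadjusted p below 0.05, and the library fit called 530). Sox3 also lost its line fit call without any 1 of the replicate libraries of 16-6 and 32 (adjusted p from 0.0560 to 0.0621).

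Pou3f1, which encodes the POU factor Oct6 (chromosome 4:124334889-124337899), had an FPKM of 125.5 in S8 and 82.28 in T2, 17.08 and 15.99 in 16-6, and 13.79 and 13.54 in 32. Its difference of 2.68 (SE 0.07) was called by the library fit (adjusted p = 5.12e-05), and the line fit gave an adjusted p of 0.0538. Slc16a3, the lactate exporter MCT4 (chromosome 11:120809798-120820314), reached 169.7 in S8 and 149.6 in T2, against 39.6 and 37.46 in 16-6 and 22.19 and 22.12 in 32. Egln3, an oxygen-dependent prolyl hydroxylase that acts on HIF alpha subunits, reached 28.75 in S8 and 14.76 in T2, and 2.67 to 3.9 in the other side. That S8 and T2 were above every mesodermal library follows from the choice of these 3 genes by their gap. S8 was the higher of the pair each time.

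The remaining genes among the 12 with the widest gaps upwards were Rsc1a1, Aire, Tmem158, Pgp, Tmem121, Rims4 and Exoc3l. Pgp, a phosphatase of phosphoglycolate, was at 167.9 in S8 and 100.6 in T2 and between 20.57 and 31.88 in the 4 mesodermal libraries. Rsc1a1 was listed at 0 in all 4 mesodermal libraries and at 28.31 in S8 and 7.03 in T2, but its locus lies inside that of Ddi2, which was at 34.5 and 50.66 in S8 and T2 and between 46.78 and 67.92 in 16-6 and 32. The locus of Aire likewise overlaps that of Dnmt3l, which was higher too. How reads were divided within these pairs was not tested. The others, 2 transmembrane proteins, the synaptic protein Rims4 and the exocyst-like Exoc3l, were at 9.21 to 25.83 in S8 and T2 and at 1.66 to 5.51 in 16-6 and 32.

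**Figure D1:**
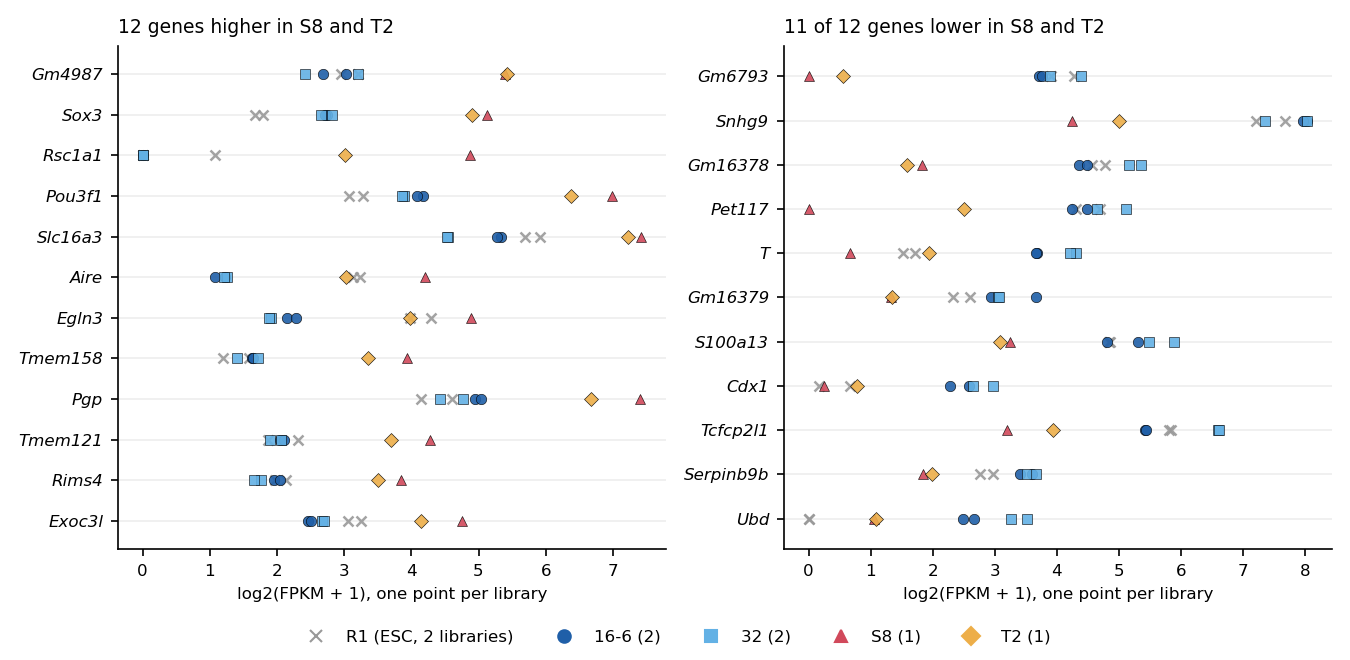
Expression of the 12 genes higher (left) and 11 of the 12 genes lower (right) in S8 and T2 with the widest gap between the sides, those called by the line fit first. The x axes give log2(FPKM + 1), each point is 1 library, and colours and shapes mark the lines; S8 and T2 lie to the right of all points of 16-6 and 32 in the left panel and to the left of them in the right panel.

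Among the lower genes, the small nucleolar RNA host gene Snhg9 (chromosome 17:24856476-24856910) had an FPKM of 17.84 in S8 and 30.93 in T2, against 261.0 and 249.5 in 16-6 and 260.1 and 163.1 in 32. The drop of 3.23 (SE 0.22) was called by both fits (line fit adjusted p = 0.0359), and the values rest on 3 and 6 fragments in S8 and T2 and on 32 to 55 in the others, with Snora78 inside the locus. Gm6793 was at 0 in S8 and 0.47 in T2 and at 12.04 to 19.86 in 16-6 and 32 and was called by both fits as well, yet it lies within Hnrnpa3, whose own level of 123.5 and 123.8 in S8 and T2 was within the 98.25 to 145.4 of the other side. Pet117 likewise lies in Csrp2bp. How the counting divided reads among such overlapping entries was not tested.

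Lower genes without an overlapping entry included T, Cdx1 and Tcfcp2l1, which are described with their groups, and S100a13, Serpinb9b and Ubd. S100a13, a calcium-binding protein, was at 8.53 in S8 and 7.49 in T2 and at 26.91 to 58.28 in the other libraries. Serpinb9b, an intracellular serine protease inhibitor, was at 2.58 and 2.97 against 9.55 to 11.75. Ubd, a ubiquitin-like modifier, was at 1.07 and 1.12 against 4.62 to 10.38. Gm16378 and Gm16379, predicted genes on chromosomes 8 and 9, were at 1.98 to 2.55 and at 1.5 to 1.54 in S8 and T2, against 19.49 to 39.74 and 6.66 to 11.65.

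The general markers of pluripotency held both directions. Of 14 core genes, 0 were called higher and 1 lower, beside 2.68% and 1.59% of all tested genes. Upwards 5 (35.7%) and downwards 2 (14.3%) did not overlap, beside 24.4% and 14.6% of all. The median difference was 0.21, beside 0.02 over all tested genes. Pou5f1 was at 1020.2 in S8, 729.9 in T2, 485.3 and 491.7 in 16-6 and 660.6 and 668.2 in 32, a difference of 0.60 under the 2-fold minimum. Sox2 overlapped (284.1 and 206.9 against 157.1 to 280.4), as did Klf4 (72.61 and 53.33 against 64.1 to 111.2). Nanog was the called gene, at 80.76 in S8 and 111.6 in T2 against 152.9 and 159.7 in 16-6 and 321.3 and 326.8 in 32, and it was called lower (difference -1.24, SE 0.03, adjusted p = 5.49e-05; line fit 0.403). Without line 32 its difference was -0.71, under the 2-fold minimum. The 4 iPSC lines carry reprogramming transgenes for Oct4, Sox2, c-Myc and Klf4, and whether these add to the gene values was not tested.

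Of 17 listed genes of the naive state, 7 were called lower in S8 and T2 and 0 higher, beside 1.59% and 2.68% of all tested genes. Downwards 10 (58.8%) and upwards 1 (5.88%) did not overlap, beside 14.6% and 24.4% of all, and the median difference was -0.87. Tcfcp2l1, a transcription factor of the naive network that responds to LIF, fell the most: 8.21 in S8 and 14.31 in T2, against 41.96 and 42.53 in 16-6 and 95.84 and 96.36 in 32. The difference was -2.45 (SE 0.03, adjusted p = 4.56e-06; line fit 0.312). The orphan nuclear receptor Nr5a2 was at 4.84 and 6.01 against 16.33 to 26.95, and the T-box factor Tbx3 at 9.5 and 6.51 against 17.65 to 46.55.

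The other called naive genes, Tcl1, Dppa3, Nr0b1 and Esrrb, differed by -1.11 to -1.32. Esrrb, an orphan receptor and a target of Wnt signalling, was at 60.25 in S8 and 53.43 in T2, at 86.39 and 87.09 in 16-6 and at 172.4 and 177.7 in 32. For these genes line 16-6 lay between the S8 and T2 pair and line 32, and for Tcl1 16-6 (14.77 and 15.83) nearly touched S8 (14.25). Without line 32 the differences of Tcl1 (-0.46) and Dppa3 (-0.61) were under 2-fold, as was that of Tcl1 without T2 (-0.95). Esrrb in 16-6 was likewise less than 2-fold above S8 and T2, so that its call also rested on line 32. Zfp42 (Rex1), counted here among the core genes, was at 118.6 and 92.91 against 141.0 to 277.5 without reaching 2-fold, and Klf2 overlapped.

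Of 21 listed formative and primed genes, 8 were called higher and 0 lower, beside 2.68% and 1.59% of all tested genes. Upwards 15 (71.4%) and downwards 0 did not overlap, beside 24.4% and 14.6% of all, and the median difference was 0.86. The line fit called 1 of them, Sox3, with the limits given above. Zic2, a zinc finger factor of the epiblast, was at 135.6 in S8 and 118.6 in T2 and at 40.83 to 47.53 in 16-6 and 32 (2.84-fold on the FPKM + 1 scale, adjusted p = 4.95e-05; line fit 0.195), and its neighbour Zic5 was at 20.34 and 27.8 against 8.95 to 11.68. Car4, a carbonic anhydrase, was at 50.76 and 51.22 against 22.51 to 25.06. Foxd3 was at 51.59 in S8 but 24.42 in T2, against 10.41 to 15.92, and without S8 its difference was 0.88. Fgf5, a common marker of the primed state, overlapped (13.25 and 28.3 against 15.24 to 24.02), whereas Otx2 (50.08 and 44.99 against 20.1 to 37.09) did not overlap but stayed under 2-fold.

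**Figure D2:**
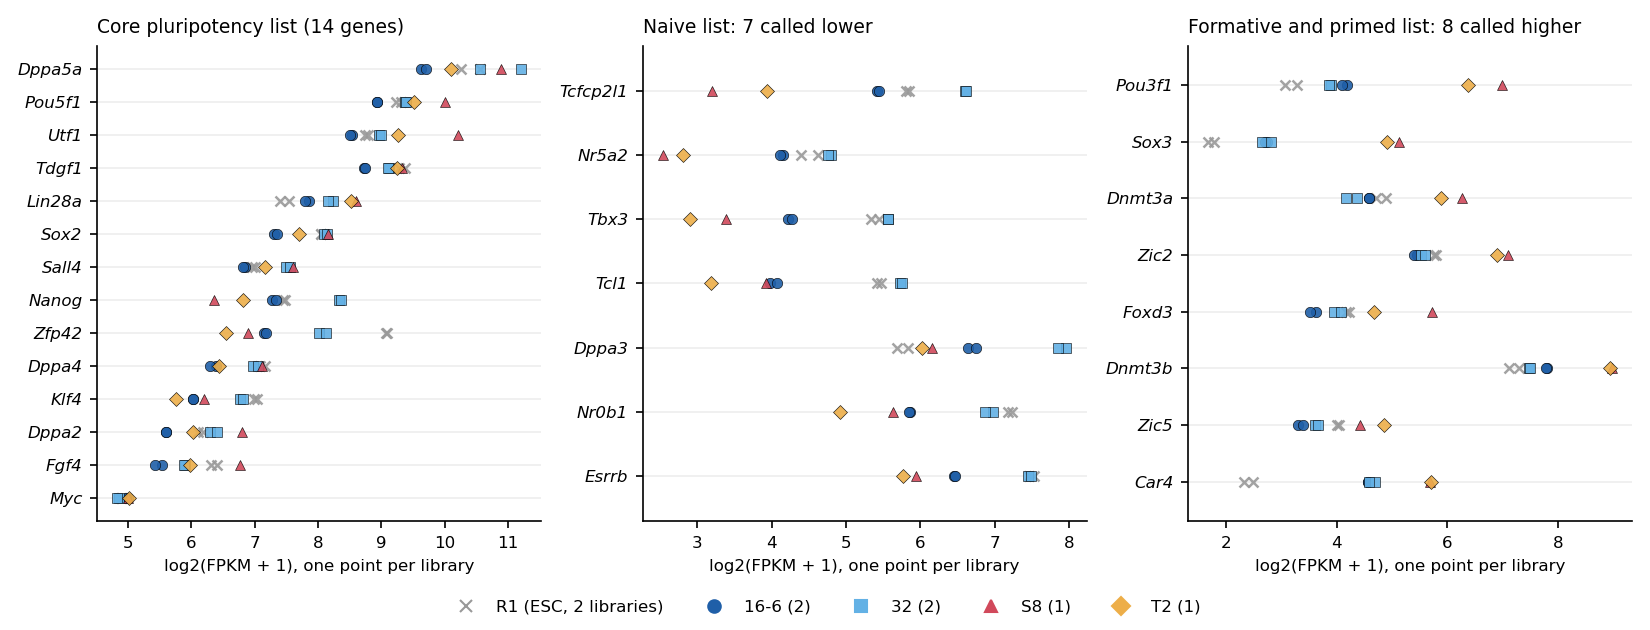
Core pluripotency genes (left), naive genes called lower (middle) and formative or primed genes called higher (right) in S8 and T2, as log2(FPKM + 1) with 1 point per library. Of the 14 core genes, 5 (35.7%) have S8 and T2 to the right and 2 (14.3%) to the left of all 16-6 and 32 libraries, beside 24.4% and 14.6% of all tested genes. In the middle panel S8 and T2 lie left of all 16-6 and 32 libraries, narrowly for Tcl1, and in the right panel to the right of them.

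DNA methylation genes included both directions. Of 21 tested genes, 5 were called higher and 1 lower, beside 2.68% and 1.59% of all tested genes. Upwards 10 (47.6%) and downwards 3 (14.3%) did not overlap, beside 24.4% and 14.6% of all, and the median was 0.29. Dnmt3b, which sets new methylation in the epiblast, was at 502.1 in S8 and 490.4 in T2, 221.9 and 220.2 in 16-6, and 175.9 and 179.3 in 32 (difference 1.32, SE 0.06). Dnmt3a was at 75.72 and 57.83 against 16.95 to 23.04 (1.65, SE 0.08), and Dnmt3l at 494.2 and 220.3 against 102.2 to 126.8 (1.53, SE 0.09), the last of which came to 0.95 without S8. Tet2, which oxidizes methylcytosine, was lower at 6.79 and 11.47 against 16.39 to 32.9 (-0.85 without line 32 and -0.96 without S8), and Tet1 lower without reaching 2-fold (36.06 and 66.71 against 71.21 to 122.1). The adjusted p of Dnmt3a, Dnmt3b, Dnmt3l and Tet2 was between 8.75e-05 and 0.000208 in the library fit and between 0.229 and 0.397 in the line fit.

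The mesendoderm is the common progenitor of mesoderm and endoderm. Of 15 tested genes, 4 were called lower and 1, the Nodal antagonist Lefty1, higher, beside 1.59% and 2.68% of all tested genes. Downwards 7 (46.7%) and upwards 3 (20%) did not overlap, beside 14.6% and 24.4% of all, and the median was -0.67. T, the T-box factor Brachyury (chromosome 17:8627288-8635361), was at 0.58 in S8, 2.85 in T2, 11.78 and 11.64 in 16-6, and 18.77 and 17.49 in 32, a difference of -2.66 (SE 0.07, adjusted p = 5.83e-05; line fit 0.312). The homeobox factor Cdx1 was at 0.19 and 0.71 against 3.83 to 6.84, and Eomes at 2.53 and 4.72 against 8.5 to 15.29. Lefty1 was at 309.0 and 295.7 against 47.8 to 118.1. S8 and T2 stood on one side of all mesodermal libraries for these 4 genes, which the rule for a call requires.

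T and Cdx1 are also targets of Wnt signalling, in which beta-catenin acts through TCF and LEF factors. Of 29 Wnt pathway and target genes, 3 were called lower, namely T, Cdx1 and Sp5, and 0 higher, beside 1.59% and 2.68% of all tested genes. Upwards and downwards 8 each (27.6%) did not overlap, beside 24.4% and 14.6% of all, and the median was -0.13. Sp5, a zinc finger repressor, was at 0.76 in S8, 2.66 in T2, 14.26 and 13.79 in 16-6, and 6.56 and 6.79 in 32 (difference -2.08, SE 0.06). The feedback gene Axin2 overlapped, at 3.34 and 5.32 against 3.8 to 5.33, and Lef1 and Tcf7 did not overlap in the opposite direction, under 2-fold. The 250 bases before the starts of Sp5 (chr2:70474673-70474922, plus strand) and T (chr17:8434173-8434422, plus strand) are shown from RefSeq on GRCm38.p6, since these genes were called lower. Capitals mark CTTTGAT, 1 form of the TCF/LEF motif, on either strand, which 3.21% of 32817 such windows hold. Sp5 has 1 match to this form and T has none. Other forms of the motif were not searched.
Sp5: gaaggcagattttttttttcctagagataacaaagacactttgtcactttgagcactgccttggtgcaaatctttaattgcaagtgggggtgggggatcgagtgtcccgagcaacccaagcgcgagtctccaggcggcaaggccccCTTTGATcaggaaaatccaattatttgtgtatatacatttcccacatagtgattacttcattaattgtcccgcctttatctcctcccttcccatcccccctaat
T: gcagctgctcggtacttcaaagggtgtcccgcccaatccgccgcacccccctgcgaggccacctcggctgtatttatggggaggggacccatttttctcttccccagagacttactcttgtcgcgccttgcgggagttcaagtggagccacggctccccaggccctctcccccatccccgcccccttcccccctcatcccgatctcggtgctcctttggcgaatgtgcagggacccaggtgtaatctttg

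Slc16a3 and Egln3 belong to genes that are known to be induced under low oxygen through HIF. Of 29 hypoxia and glycolysis genes, a list without Slc16a3, 2 were called higher, Egln3 and Bnip3, and 0 lower, beside 2.68% and 1.59% of all tested genes. Upwards 9 (31.0%, beside 24.4% of all) and downwards 1 (3.45%) did not overlap, and the median was 0.16, beside 0.02 over all genes and -0.01 in the list after the correction for GC content and length described below. Bnip3, a mitophagy receptor, was at 122.5 in S8 and 96.85 in T2, 38.85 and 38.86 in 16-6, and 20.17 and 20.85 in 32 (difference 1.91, SE 0.03, adjusted p = 1.05e-05; line fit 0.312). The lactate dehydrogenase gene Ldha was at 1664.6 and 1555.1 against 1074.5 to 1194.0, under 2-fold, and Pdk1 overlapped (66.03 and 76.43 against 41.47 to 86.5). The 250 bases before the starts of Slc16a3 (chr11:120948817-120949066, plus strand), Egln3 (chr12:54203875-54204124, minus strand) and Bnip3 (chr7:138909507-138909756, minus strand) follow, from the same source. Capitals mark ACGTG, the core bound by HIF, on either strand, which 16.6% of all such windows hold; in Bnip3 the motif overlaps its own reverse complement.
Slc16a3: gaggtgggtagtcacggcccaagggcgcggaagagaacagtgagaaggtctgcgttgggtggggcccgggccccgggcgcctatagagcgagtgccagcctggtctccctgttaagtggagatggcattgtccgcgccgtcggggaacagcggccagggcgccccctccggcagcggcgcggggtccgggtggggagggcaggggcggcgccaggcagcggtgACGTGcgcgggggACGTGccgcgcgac
Egln3: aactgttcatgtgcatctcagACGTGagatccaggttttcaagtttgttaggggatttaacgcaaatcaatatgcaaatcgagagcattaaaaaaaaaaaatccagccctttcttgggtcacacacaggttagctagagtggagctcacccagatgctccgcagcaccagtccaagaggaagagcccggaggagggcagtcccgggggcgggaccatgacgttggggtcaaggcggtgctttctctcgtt
Bnip3: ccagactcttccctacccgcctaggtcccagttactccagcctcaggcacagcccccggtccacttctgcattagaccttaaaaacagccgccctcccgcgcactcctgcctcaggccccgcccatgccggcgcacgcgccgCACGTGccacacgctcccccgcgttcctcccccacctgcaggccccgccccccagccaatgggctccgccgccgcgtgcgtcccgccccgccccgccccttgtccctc

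**Figure D3:**
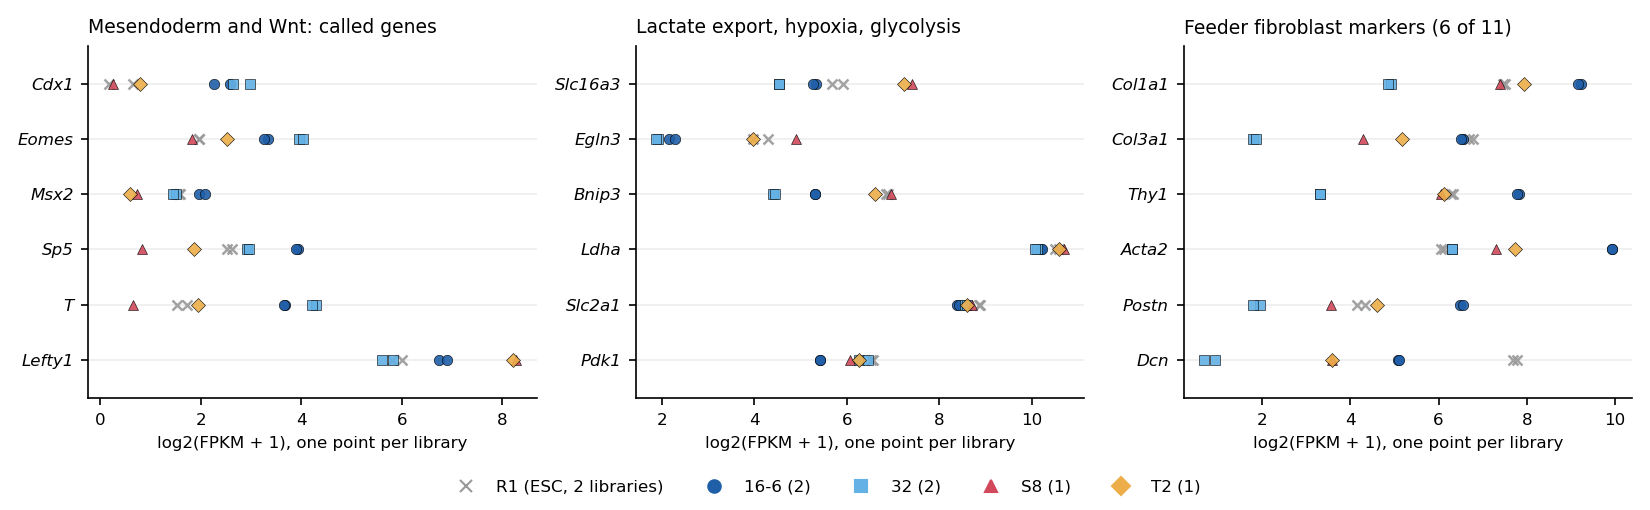
Mesendoderm and Wnt genes called between the sides (left), Slc16a3 with hypoxia and glycolysis genes (middle) and fibroblast markers of the feeders (right), as log2(FPKM + 1) with 1 point per library. In the right panel S8 and T2 lie between line 32 on the left and line 16-6 on the right for all 6 genes.

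R1, which entered the library fit through its spread alone, stood on different sides for different groups. For Tcfcp2l1 (56.25 and 54.59), Tbx3 (42.5 and 39.56) and Esrrb (183.7 and 175.0) its libraries were at the level of 16-6 or 32. For Pou3f1 (7.38 and 8.72) and Sox3 (2.21 and 2.47) R1 was below them. In contrast, R1 was at the level of S8 and T2 for Bnip3 (117.3 and 114.4), Egln3 (14.73 and 18.74), T (1.87 and 2.28), Cdx1 (0.58 and 0.12) and Eomes (2.91 and 2.93), so that here 16-6 and 32 were the lines that stood apart. Over all 567 called genes R1 was nearer to the mean of 16-6 and 32 in 470 (82.9%), beside 66.5% of all tested genes. Both R1 libraries reached the nearer of S8 and T2 in 43 (7.58%), beside 30.2% of all tested genes. The called genes were chosen because S8 and T2 lay away from 16-6 and 32, so that all tested genes are no matched background. R1 also resembles 16-6 and 32 in the read numbers and mapped share that the study lists.

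Most of the chosen donor tissue markers were low. The 5 blood markers in the files summed to an FPKM of 13.5 to 34.0 in 16-6 and 32 and 8.93 to 9.10 in S8 and T2, most of it Kit, which pluripotent cells express too (7.28 and 8.15 in S8 and T2, 12.94 and 14.14 in 16-6, 29.89 and 33.17 in 32). The 3 epidermal markers Krt5, Krt14 and Trp63 were under 1 in every library, S8 included, and summed to 0.52 in S8 and 0.60 in T2. The 5 stomach markers summed to 2.65 in S8, 2.75 in T2 and 2.05 to 5.44 in 16-6 and 32, and Gkn1 and Tff1 were at 0 in all of them. The 4 adipose markers summed to 0.53 and 0.75 in line 32 and 2.40 and 2.83 in line 16-6.

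In the longer lists of donor tissue genes, 1 of 16 blood genes was called higher (Epor) and 2 lower (Kit and Gata2), 1 of 14 adipose genes higher (Cebpb) and 0 lower, and 0 of 17 epidermal genes higher and 2 lower (Dsp and Perp). Over all tested genes 2.68% were called higher and 1.59% lower. Of 9 stomach genes, 0 were called by either fit. The tested genes of these lists were not all low. Mean log2(FPKM + 1) in the 4 lines was 3.49 to 3.70 for epidermal and 3.16 to 3.74 for adipose genes. It was 1.37 to 1.98 for blood and 0.79 to 1.01 for stomach genes, beside 3.83 to 3.94 over all tested genes. Upwards, 4 blood (25%), 6 adipose (42.9%), 3 epidermal (17.6%) and 1 stomach gene (11.1%) did not overlap, beside 24.4% of all tested genes. Downwards, 2 blood (12.5%), 0 adipose, 3 epidermal (17.6%) and 0 stomach genes did not overlap, beside 14.6% of all. Dsp and Perp, which build desmosomes, were lowest in S8, the line of epidermal origin: Dsp was at 1.79 in S8, 7.35 in T2 and 11.66 to 14.12 in the mesodermal libraries. Of the genes by which the donor tissues were typed, Pgc was at 1.42 in S8, 1.46 in T2, 1.39 and 1.26 in 16-6, and 3.76 and 3.34 in 32, and Hoxa9 was highest in 16-6 (2.01 and 1.76) with 0.14 or less in the 4 other libraries. Hoxa9 thus overlapped between the sides through line 32. Ghrl was at 0.68 in S8, 0.61 in T2 and 0.19 to 1.39 in 16-6 and 32. Krt5, Slc4a1, Igf1 and Ppargc1a stayed under the minimum of 1 in all 6 libraries.

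Feeder fibroblast transcripts differed more within the mesodermal side than between the sides. The 11 fibroblast markers summed to 3321 and 3343 in 16-6, 266.4 and 257.1 in 32, 687.2 in S8 and 921.0 in T2. Col1a1 was at 599.8 and 566.5 in 16-6 and 29.07 and 27.77 in 32, with S8 (167.1) and T2 (242.7) between. Tnc, a matrix protein and another typing gene, had the same order at 687.2 and 682.2 in 16-6, 18.03 and 18.95 in 32, 72.83 in S8 and 111.9 in T2. Of 40 feeder genes, 0 were called higher and 1 lower (Ctgf), beside 2.68% and 1.59% of all tested genes. The median difference of the feeder genes was -0.29. None of the 11 markers was at 0, and how far feeder RNA enters the levels of genes that feeders share was not tested. In a bulk sample fewer cells of a type and less RNA per cell cannot be told apart, which holds for every group above.

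Some smaller groups had called members, to be read beside the 2.68% of all tested genes called higher and the 1.59% called lower. The imprinted cell cycle inhibitor Cdkn1c was at 79.93 in S8 and 43.33 in T2 against 14.65 to 20.06, the only imprinted gene of 38 called higher, while Xist and Igf2r were called lower and the growth-related pair H19 and Igf2 overlapped. Of 24 interferon and antigen presentation genes, 3 were called higher and 0 lower, among them the immunoproteasome subunit Psmb10 (77.71 and 53.73 against 15.0 to 19.57). Of 26 ATF4 and stress genes, Chac1, Trib3 and Cebpb were called higher and Asns lower (109.5 and 112.7 against 198.3 to 289.7). Of 26 p53 targets, 1 was called higher (Bax) and 4 lower (Eda2r, Polk, Cdkn1a and Perp), although Cdkn1a in line 32 (53.7 and 57.06) was barely above T2 (53.34). The germline genes Hormad1 and Mael were called higher, 2 of 17. Of 22 metallothionein and redox genes, Mt4 (1.33 and 0 against 4.51 to 20.45) and Mt1 (1525.3 and 1034.2 against 2053.1 to 3903.0) were called lower and 0 higher. Neither fit called any of 26 Hox genes. Upwards 0 and downwards 1 (3.85%) of them did not overlap, beside 24.4% and 14.6% of all tested genes.

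Other lists held both directions. Of 88 small nucleolar RNA genes 13 were called higher and 9 lower, of 152 miRNA genes 10 and 6, of 84 cytosolic ribosomal protein genes 2 and 2, and of 40 replication-dependent histone genes 4 and 1. Over all tested genes 2.68% were called higher and 1.59% lower. After the correction for GC content and length 0 histone genes were called higher and 2 lower. Short RNA genes made up most of the line fit calls. Of its 18 genes, 14 span under 200 bases, 12 of these overlap another gene, and 11 rest on at most 4 fragments in every iPSC library. Mir546, 1 of the 14, was at 388.0 and 266.2 in 16-6, 337.3 and 262.7 in 32 and 0 in S8 and T2, from 8.0 to 13.9 fragments in the mesodermal libraries. It lies in Ctdsp2. Snora3, inside Rpl27a, was at 398.3 in S8 and 323.0 in T2 (18 and 15 fragments) and at 51.16 to 85.29 in 16-6 and 32. Libraries of poly(A) RNA read longer transcripts that hold these sequences, so that the value of Mir546 is no level of the mature miRNA. Its mature sequence from RefSeq is given with the seed (bases 2 to 8) in capitals, since it was among the few genes that passed the line fit.
miR-546: aUGGUGGCacggaguc

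S8 and T2 were not alike in how far they stood from 16-6 and 32. S8 was the farther of the pair in 465 of 567 called genes (82.0%), beside 66.1% of all tested genes. The median absolute difference over all tested genes was 0.28 between S8 and T2, 0.32 between 16-6 and 32, and 0.32 between the means of the sides. A difference of 2-fold or more separated 16-6 from 32 in 1522 genes, S8 from T2 in 454, and the means of the sides in 791. Means of 2 lines vary less than single lines, so that the values for the sides are not like for like with the others. Bmpr2, a BMP receptor, is an example of a gene for which S8 was the farther line. It was at 1.38 in S8 and 7.79 in T2, against 7.94 to 16.79 in the mesodermal libraries.

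Several of the named calls rested on 1 line. Without 16-6 the difference fell under 2-fold for Cdkn1a (-0.13), Xist (-0.56), Igf2r (-0.69), Ctgf (-0.73), Msx2 (-0.82), Gata2 (-0.92), Polk (-0.94), Id4 (-0.98), Crb3 (0.83), Mael (0.86), Bax (0.95) and Trib3 (0.99). Without 32 it did so, beside the genes given above, for Kit (-0.74), Mt1 (-0.76), Asns (-0.85), Eif2s3y (0.58), Cebpb (0.73) and Epor (0.98). Without S8 the same held for Krt19 (-0.51), Bmpr2 (-0.55), Perp (-0.56), Dsp (-0.70), Mael (0.64), Irf1 (0.84) and Bax (0.78), and without T2 for Spry1 (0.96) and Mt1 (-0.90). In all, 14, 15, 22 and 3 of 92 named and called genes lost their call without 16-6, 32, S8 and T2. Sox3, Pou3f1, Slc16a3, Egln3, Bnip3, Zic2, Dnmt3a, Dnmt3b, Tcfcp2l1, Nr5a2, Tbx3, T, Cdx1, Eomes and Sp5 passed the threshold of the library fit in each of these 4 fits.

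**Figure D4:**
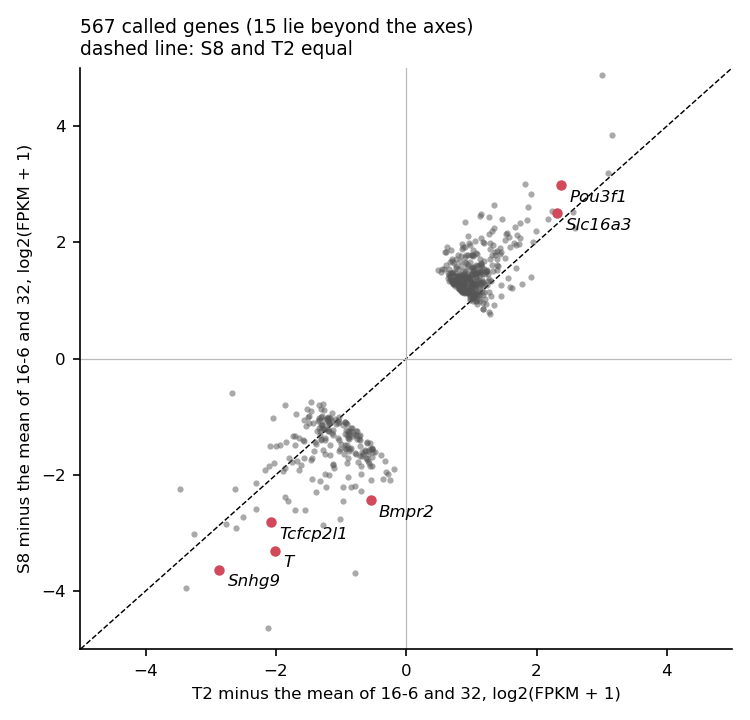
Distance of S8 (y axis) and T2 (x axis) from the mean of 16-6 and 32 for the 567 called genes, in log2(FPKM + 1). Each point is a gene and the dashed line marks equal distance; 465 genes lie on the S8 side of equality, and 15 genes fall outside the axes.

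The difference between the sides ran with base composition and length of the transcript. Over deciles of GC content, the median difference rose from -0.24 in the lowest to 0.35 in the highest, and over deciles of length it was 0.19 in the one with a median of 1446 bases and -0.31 in the longest. Against R1, S8 showed the steepest course (-0.37 to 0.49 over GC) and T2 a flatter one (-0.15 to 0.22), with 16-6 at -0.12 to 0.10 and 32 at 0.05 to -0.06. Genes called higher had a median GC content of 57.0% and genes called lower of 48.5%, beside 50.7% of all tested. After a correction of each library for GC content and length, 336 of 12611 genes (2.66%) were called, 157 (1.24%) higher and 179 (1.42%) lower, against 314 higher and 181 lower in the same genes without it; 131 of 312 higher (42.0%) and 126 of 180 lower genes (70%) remained called.

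The groups above were described again on the corrected values. Naive genes were then called lower in 8 cases of 17 and formative genes higher in 7 of 21, with medians of -0.89 and 0.77; Foxd3 was the formative gene that dropped out. Pou3f1 (2.27), Sox3 (1.60), Slc16a3 (2.27), Egln3 (2.28), Bnip3 (1.97), Dnmt3a (1.93), Dnmt3b (1.28), T (-2.81), Cdx1 (-2.58), Sp5 (-2.55), Tcfcp2l1 (-2.05) and Nanog (-1.22) stayed called by the library fit with the corrected differences in parentheses. Of 76 named and called genes with a GC value, 18 lost the call, among them Foxd3, Tet2, Epor, Trib3, Bax, Polk, Eda2r, Igf2r, Irf1 and Psmb9. The line fit called 1 gene after the correction, and also 1 in the same genes without it. Medians by chromosome lay between -0.13 on chromosome 1 and 0.16 on chromosome 7.

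**Figure D5:**
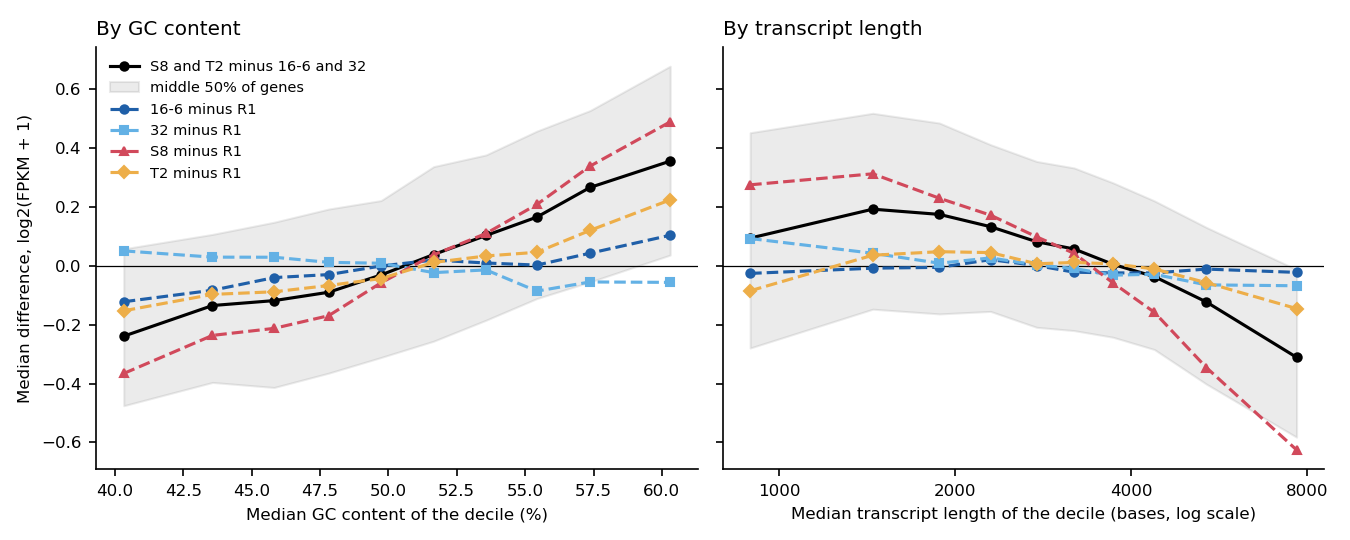
Median difference in log2(FPKM + 1) over deciles of GC content (left) and of transcript length (right). The black line gives S8 and T2 minus 16-6 and 32 with the middle 50% of genes shaded, and the dashed lines give each line minus R1; the black line rises with GC content and falls with length, S8 most steeply.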

How the data were processed

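The authors aligned paired HiSeq reads of oligo(dT)-selected RNA with TopHat 2.0.4 (mm9, UCSC gene models) and kept unique alignments. The deposited values are FPKM per gene with confidence limits from Cufflinks, version 2.0.2 in the methods and 2.0.0 in the submitters' processing notes. They sum to 1.14e+10 to 1.60e+10 per library and were divided by 12725.7, which set the median total to 1000000. The number of fragments behind an FPKM was taken from its distance to the upper confidence limit, read as 2 Poisson errors, which covers counting error only and gave 15.5 to 16.7 times 1000000 per library.

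In R 4.3.3, limma 3.58.1 with eBayes and a trend was fitted to log2(FPKM + 1). The line fit used the log2 of each line's mean FPKM, 2 lines a side, with 2 residual degrees of freedom. The library fit used all 8 libraries in 5 groups with 3, and R1 entered only for its spread. The study calls the replicates biological, and nothing in the labels says that they came from separate cultures, so that p-values of the library fit measure the spread between libraries, which may be technical. A trial on made-up values, in which 200 genes had been altered, was run for the line fit alone. The library fit had no such trial. A log2 scale with a pseudocount of 1 understates the change of low genes. GC content and length of the longest coding transcript (NCBIM37, the same build as mm9) were matched for 95.1% of tested genes, and were removed by splines with 5 degrees of freedom in an alternative added after the data had been seen.

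Named genes were the 12 with the widest gap in each direction, those of the line fit first, filled from the library fit, then up to 5 called members of each list, or 4 of the highest level where none was called, the core pluripotency list, and the genes by which the donor tissues were typed; further genes were named for their place in a list after their values were seen. A gene that this rule named is not reported here. The members, lists and tests were chosen with earlier results of these data known.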

Additional observations from a re-analysis of the deposited data

How the results depend on the processing

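The line fit called 18 genes and the library fit 567 (356 higher and 211 lower in S8 and T2). With an FPKM of 1 or more in all libraries the line fit called 8, without a filter 10, with quantile normalization 28, among entries of at least 200 bases 0 (1572 at an unadjusted p below 0.05, and 530 by the library fit), and 1 both with the correction for GC content and length and among the same genes without it. The library fit called 1003 (647 and 356) at a pseudocount of 0.1, 4954 (3098 and 1856) without a fold minimum, and 336 (157 and 179) after the correction for GC content and length, which moved the higher share; 495 (314 and 181) of the same genes were called without it. Leaving out single libraries or lines gave 10 to 82 genes in the line fit and 404 to 1529 in the library fit (226 to 759 higher, 178 to 1063 lower): without 16-6 it called 1053 (674 and 379), without 32 1529 (466 and 1063), without S8 404 (226 and 178) and without T2 1367 (759 and 608). A lone line is then assumed to vary like the others. Without single libraries or lines, 3362 to 5315 genes did not overlap upwards and 2073 to 4346 downwards. With all of them, 79 and 40 kept a gap of 2-fold. Of 92 named and called genes, 76 fell short of the line fit and 0 turned direction under any setting. Tnc, not called, turned from -0.34 to 2.23 without line 16-6, and was -2.91 without line 32. No paired analysis was possible, since each line is a separate clone and nothing pairs a library of S8 or T2 with one of 16-6 or 32. With 1 library each, the noise of S8 and T2 was not measured.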
